A study of Mus musculus with 150 samples.

Results

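The genes of mucus and goblet cells described here are 8 members, which were followed through bulk libraries and single cells of the mouse lung: Muc5b, Muc5ac, Muc1, Muc4, Tff2, Agr2, Spdef and Foxa3. They were taken by name, as 8 of 31175 genes named in the deposited tables, and all 8 had a row in the bulk table of 24341 rows and in both single-cell tables. The bulk libraries compared 3 p53 knockout (KO) libraries, replicates 7, 8 and 10, with 3 wild-type (WT) libraries, replicates 1, 5 and 6. Per the labels' protocols, the KO mice carried p53flox/flox and the WT mice p53+/+ alleles, and both groups carried Scgb1a1-CreERTM, a tamoxifen-dependent Cre driven by the club cell promoter Scgb1a1, with the Rosa26-mT/mG reporter, which turns recombined cells green. The mice were 8 to 12 weeks old, and the sorted cells were GFP+ and EpCAM+ and negative for CD31, CD34, CD45 and 7AAD. The labels differ on the time after tamoxifen, day 30 in the bulk titles and 70 days in the protocol. The genotype label reads p53-/-, which would be a full knockout, so the labels do not settle how the allele was lost.

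The single cells came from 1 C1 microfluidic chip of each genotype. Of the cells labelled knockout 61 were analysed, and of the WT cells 66. The single-cell labels give tamoxifen at 250 mg/kg for both genotypes and name several p53 alleles, and they do not make clear which allele the captured cells carried or whether the cells were fresh or cultured. Each genotype is 1 chip with no animal named, so single-cell values are set side by side without a test. Nothing in the labels says that the bulk libraries came from separate animals, so bulk p-values rest on a spread between libraries that could be technical.

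Mucus is a gel of large glycoproteins, the mucins. Muc5b and Muc5ac are the gel-forming mucins of the airway: Muc5b is made by secretory cells of the resting airway, and Muc5ac is induced when club cells turn into goblet cells, as in allergic inflammation. Muc1 and Muc4 are mucins anchored in the apical membrane. Tff2 is a trefoil factor, a small secreted peptide packed with mucins, and Agr2 is a protein disulfide isomerase of the endoplasmic reticulum needed to fold them. Spdef, an ETS factor, and Foxa3, a forkhead factor, are transcription factors that drive goblet cell differentiation in the mouse airway.

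On mm10, Muc5ac (chr7:141789011-141819135, plus strand) and Muc5b (chr7:141839072-141873085, plus strand) lie side by side with a gap of 19936 bases. Foxa3 lies on the same chromosome at chr7:19013283-19023539 on the minus strand. Tff2 (chr17:31141062-31144282) and Spdef (chr17:27714447-27728951) both lie on the minus strand of chromosome 17. Muc1 lies at chr3:89229056-89233381 and Agr2 at chr12:35992925-36004081, both on the plus strand. Muc4, at chr16:32735886-32797435 on the plus strand, overlaps Muc20 on the minus strand. Whether reads were counted by strand is not stated, so reads of Muc4 and Muc20 may not be separated, and the values of both are uncertain on that account.

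Promoter sequences from RefSeq (GRCm38.p6), 250 bases before to 50 after the gene start, were matched for 5 of the 8 members: Muc1, Muc4, Agr2, Spdef and Foxa3. Those of 4 are printed 5′ to 3′ on the gene's own strand: Muc1, the member found in nearly every cell; Agr2, a member found in some cells and missing from others; and Spdef and Foxa3, the 2 regulators. Capitals mark matches on either strand to a forkhead motif (TNTTTAC), an SPDEF motif (CCGGAT) or a TATA box (TATAAA). The regions are chr3:89228806-89229105 for Muc1 (plus strand), chr12:35992675-35992974 for Agr2 (plus), chr17:27728902-27729201 for Spdef (minus) and chr7:19023490-19023789 for Foxa3 (minus).
Muc1: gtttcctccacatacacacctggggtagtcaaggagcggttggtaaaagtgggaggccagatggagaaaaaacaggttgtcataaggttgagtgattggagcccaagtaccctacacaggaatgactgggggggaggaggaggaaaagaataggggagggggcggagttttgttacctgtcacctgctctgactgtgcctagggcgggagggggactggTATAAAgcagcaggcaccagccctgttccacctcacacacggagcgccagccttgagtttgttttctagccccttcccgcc
Agr2: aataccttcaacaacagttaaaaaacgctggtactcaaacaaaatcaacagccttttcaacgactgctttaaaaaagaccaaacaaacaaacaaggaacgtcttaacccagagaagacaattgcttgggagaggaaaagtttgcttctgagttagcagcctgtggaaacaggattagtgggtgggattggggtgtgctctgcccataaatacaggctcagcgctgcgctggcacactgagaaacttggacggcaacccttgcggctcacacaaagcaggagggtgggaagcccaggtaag
Spdef: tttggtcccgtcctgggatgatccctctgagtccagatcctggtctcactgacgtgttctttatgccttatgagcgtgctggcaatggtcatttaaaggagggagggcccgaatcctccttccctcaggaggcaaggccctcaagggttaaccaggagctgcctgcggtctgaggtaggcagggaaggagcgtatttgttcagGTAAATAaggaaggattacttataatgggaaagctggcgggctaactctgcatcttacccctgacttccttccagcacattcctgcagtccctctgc
Foxa3: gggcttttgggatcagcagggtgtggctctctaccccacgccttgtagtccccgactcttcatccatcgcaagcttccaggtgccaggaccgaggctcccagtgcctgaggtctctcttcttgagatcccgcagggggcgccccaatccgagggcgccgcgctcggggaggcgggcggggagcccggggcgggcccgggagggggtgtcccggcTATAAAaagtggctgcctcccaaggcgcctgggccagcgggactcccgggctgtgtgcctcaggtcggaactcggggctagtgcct

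The Spdef window held 1 forkhead match, on the strand opposite to the gene, starting 47 bases before the gene start; 12.36% of 32851 mouse promoters of the same length held such a match. A TATA box match stood in Muc1, 31 bases before the start, and in Foxa3 and Muc4, 36 bases before it, against 13.62% of all promoters. The SPDEF motif, found in 6.039% of all promoters, was in none of the 5 windows, and Agr2 held no match to any of the 3 motifs. A match describes the letters in the window and does not show binding.

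The check of the targeted gene differed between the assays. In bulk, Trp53 was at 8.63, 9.98 and 7.56 FPKM (fragments per kilobase of transcript, scaled to library size) in KO libraries 7, 8 and 10, against 16.6, 22.2 and 21.7 FPKM in WT libraries 1, 5 and 6 (limma log2 fold change -1.119, SE 0.15, adjusted p = 0.144). In single cells the transcript went against the label: 16 of 61 cells labelled knockout had Trp53 at a TPM (transcript abundance scaled to a fixed sum per cell) of at least 1, against 4 of 66 WT cells. Every direction drawn from the chips is therefore given for the cells labelled knockout. The median cell labelled knockout had more detected genes than the median WT cell (3580 against 3130.5). The part of this in the Trp53 shares was not tested. Libraries also differed in cell type markers. Over 10 club cell markers, of which Scgb1a1 and Cyp2f2 were not quantified in bulk, WT replicate 1 summed to 32879 FPKM, against 70891 to 101958 FPKM in the other 5 libraries. Its sum over the alveolar type 2 (AT2) markers was 9366 FPKM, against 4190 to 5296 FPKM in the others, with Sftpc, Sftpa1 and Lyz2 not quantified. Sums over 10 ciliated markers were 711, 961 and 506 FPKM in KO libraries 7, 8 and 10, against 614, 179 and 166 FPKM in WT libraries 1, 5 and 6. Of 8 immune markers 7 were tested, and all 7 were lower in KO without overlap and at an unadjusted limma p under 0.05. Of these 0 were past the adjusted threshold. Of all genes tested 19.3% did not overlap in either direction, and 6.06% were lower in KO at that unadjusted p. Sums over the 8 immune markers were 52.7, 32.4 and 38.3 FPKM in KO libraries, against 65.4, 71.9 and 95.6 FPKM in WT libraries. Basal markers summed to at most 2.49 FPKM in any library. CD45 (Ptprc), Pecam1, Cd34 and Krt5 were below a TPM of 1 in all single cells kept. Of 8 immune markers 4 were below that level in all cells labelled knockout, and 6 in all WT cells. The highest immune sum in a cell was 5465 TPM in those labelled knockout and 186 TPM in WT. Of 7 endothelial markers 5 were below that level in all cells of both chips. The remaining markers of these 2 lists were found in some cells.

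None of the 8 members differed between KO and WT in bulk past the threshold, a limma adjusted p under 0.05. The same test called 1 of all 11957 genes, or 0.00836%, which was the microRNA Mir6374. At an unadjusted p under 0.05 the members still numbered 0, against 13.1% of all genes (7.04% higher and 6.06% lower in KO). The fold change was positive for 7 of 8 members, against 51.5% of all genes, and the members' median log2 fold change was 0.46, against 0.01 over all genes. That direction depended on single libraries. The fold change was positive for 2 of 8 members without WT replicate 1 (median -0.23), and for 5 of 8 without KO replicate 8 (median 0.18).

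Muc5b was at 95.3, 246 and 112 FPKM in KO libraries 7, 8 and 10, against 21, 165 and 117 FPKM in WT libraries 1, 5 and 6. The groups overlapped: KO replicate 8 was the highest of the 6 and WT replicate 1 the lowest, while KO replicate 10 and WT replicate 6 were side by side. The log2 fold change was 0.88 (SE 0.78, limma adjusted p = 0.686), and it was -0.01 without WT replicate 1. Muc5ac, the inducible gel-forming mucin, stayed low, at 3.78, 10.2 and 4.44 FPKM in KO libraries, against 1.08, 6.36 and 4.34 FPKM in WT libraries. It had the same extremes as Muc5b, KO replicate 8 and WT replicate 1, and a log2 fold change of 0.61 (SE 0.52, limma adjusted p = 0.667), or 0.08 without WT replicate 1. In every library Muc5b was well above Muc5ac in FPKM, which is scaled to gene length. Whether reads of the 2 mucins were counted equally well was not tested.

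Muc1 was the most abundant member in all 6 libraries and the steadiest. It was at 981, 879 and 838 FPKM in KO libraries 7, 8 and 10, against 1048, 1064 and 1113 FPKM in WT libraries 1, 5 and 6. All 3 KO libraries were below all 3 WT libraries, with KO replicate 10 the lowest. Groups that do not overlap were found for 19.3% of all genes tested, and Muc1 was the 1 member of 8 with that pattern. Its log2 fold change was -0.26 (SE 0.17, limma adjusted p = 0.563), and the exact permutation test over libraries (two-sided) gave p = 0.1, the smallest that 3 libraries against 3 can give. Its highest library was 1.33 times its lowest. Muc4 was at 14.4, 19.7 and 14.2 FPKM in KO libraries, against 8.47, 14.3 and 14.0 FPKM in WT libraries, with a log2 fold change of 0.39 (SE 0.22, limma adjusted p = 0.495). Apart from KO replicate 8, which was high, and WT replicate 1, which was low, its 4 remaining libraries lay close together.

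Tff2 varied more than any other member. It was at 250, 695 and 341 FPKM in KO libraries 7, 8 and 10, against 38.7, 523 and 938 FPKM in WT libraries 1, 5 and 6. The WT group held both the lowest and the highest library, and the KO libraries lay between them; the log2 fold change was 0.54 (SE 1.18, limma adjusted p = 0.891) and became -0.84 without WT replicate 1. Agr2 was at 40.95, 117 and 80.7 FPKM in KO libraries, against 5.09, 92.5 and 78.3 FPKM in WT libraries. It had the largest fold change of the members, 1.05 on the log2 scale (SE 1.14, limma adjusted p = 0.754), which was -0.22 without WT replicate 1.

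The 2 regulators were low and did not separate the genotypes. Spdef was at 8.24, 12.4 and 8.67 FPKM in KO libraries 7, 8 and 10, against 4.91, 11.5 and 11.6 FPKM in WT libraries 1, 5 and 6, with a log2 fold change of 0.12 (SE 0.32, limma adjusted p = 0.912). Foxa3 was at 3.74, 7.32 and 3.06 FPKM in KO libraries, against 0.979, 6.29 and 6.14 FPKM in WT libraries, with a log2 fold change of 0.21 (SE 0.54, limma adjusted p = 0.907). For both genes 2 of the 3 KO libraries were below WT replicates 5 and 6, and only KO replicate 8 was above them. Without WT replicate 1 the log2 fold changes were -0.24 for Spdef and -0.41 for Foxa3.

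**Figure D1:**
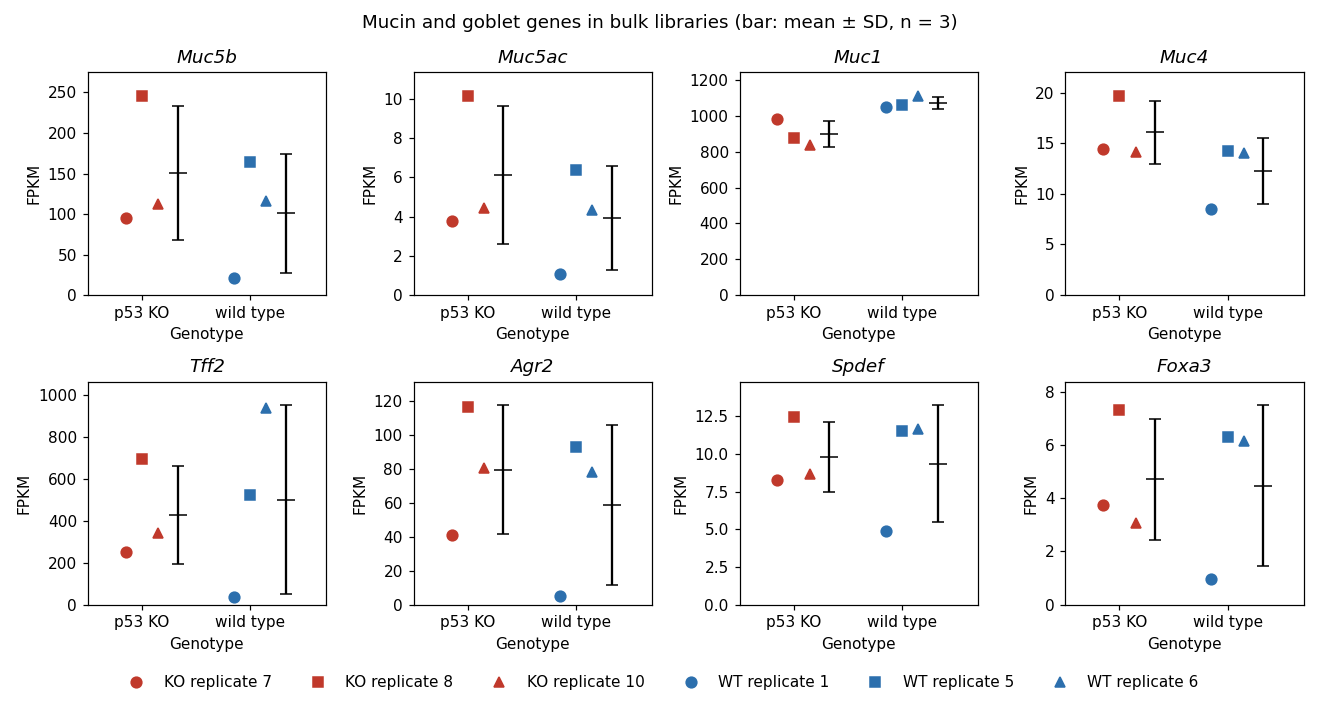
FPKM (linear axes from 0, scaled to each gene) of the 8 members in KO libraries (left, red) and WT libraries (right, blue), with each point 1 library, a symbol for each replicate, and a bar for the mean ± SD (n = 3 each). WT replicate 1 is the lowest point for 7 of 8 members, and Muc1 is the exception, between 838 and 1113 FPKM in all 6 libraries.

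WT replicate 1 was the lowest of the 6 libraries for 7 of 8 members, all but Muc1, and KO replicate 8 was the highest for 6, all but Muc1 and Tff2. The mean of WT replicates 5 and 6 was 18.9 times the value of WT replicate 1 for Tff2, 16.8 times for Agr2, 6.70 times for Muc5b, 6.35 times for Foxa3 and 4.94 times for Muc5ac. The same ratio was 2.36 for Spdef, 1.67 for Muc4 and 1.04 for Muc1. Tff2 and Agr2 thus varied most between the WT libraries and Muc1 least. Scgb3a1, a secretoglobin of the club list, was at 10618, 20354 and 15666 FPKM in KO libraries 7, 8 and 10, against 1473, 18473 and 25279 FPKM in WT libraries 1, 5 and 6, and was thus also lowest in WT replicate 1. Fewer cells of a type and less RNA per cell cannot be told apart in bulk, and the part that the lower club and higher AT2 marker sums of WT replicate 1 have in the members' values was not tested.

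Without WT replicate 1 the fold change was positive for 2 of 8 members, Muc5ac and Muc4, and the members' median was -0.23. The number of members past the threshold was again 0, while 407 genes, or 3.45% of those tested, passed. In that comparison Muc1 had a log2 fold change of -0.28 and Muc4 one of 0.16. With each library centred on its club markers, 5 of 8 members were positive, with a median of 0.21 where the median of all genes was -0.25.

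**Figure D2:**
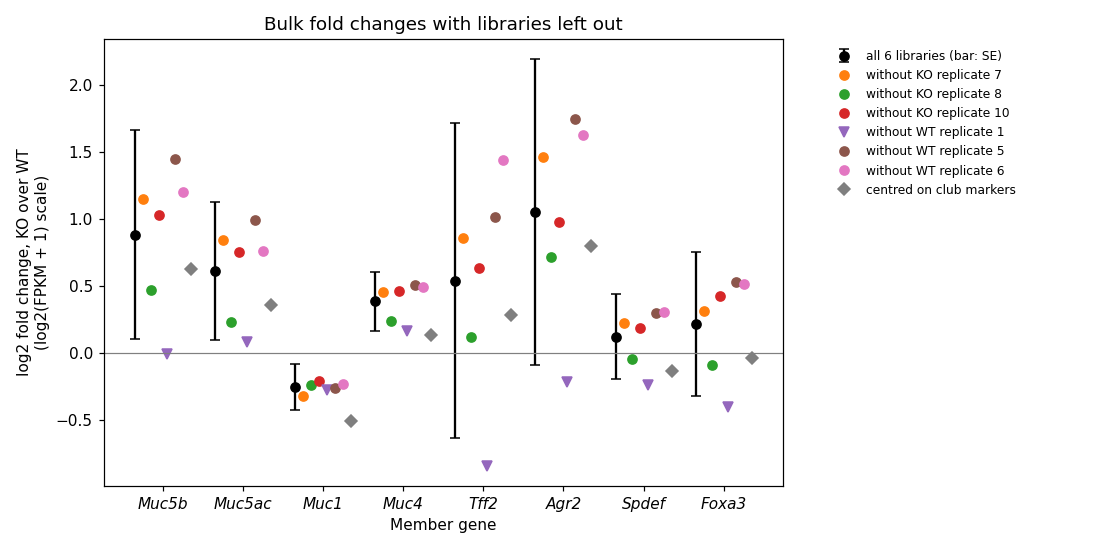
Log2 fold change (KO over WT, log2(FPKM + 1) scale) of each member over all 6 libraries (black, with a bar for the standard error), with each library left out in turn, and with libraries centred on club markers. The triangles without WT replicate 1 are below 0 for Tff2, Agr2, Spdef and Foxa3 and at -0.01 for Muc5b, and Muc1 is below 0 at every point.

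In KO libraries the order of the members by median FPKM was Muc1, Tff2, Muc5b, Agr2, Muc4, Spdef, Muc5ac and Foxa3. The ranges of Muc5b and Agr2 overlapped, as did those of Spdef, Muc5ac and Foxa3 from one neighbour to the next; the other neighbours were apart. In WT libraries the order was the same but for the last 2, Foxa3 and Muc5ac, which changed places, and only Muc1 was apart from its neighbour.

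The wider mucus genes, taken as 5 lists, gave 0 calls among 63 tested genes, beside the 0.00836% over all genes. Of the secreted goblet products 8 of 9 tested genes were on the positive side, against 51.5% of all genes, and the median log2 fold change was 0.74. The list's mean log2(FPKM + 1) was 4.52, 5.67 and 4.55 in KO libraries 7, 8 and 10, against 2.95, 4.83 and 4.66 in WT libraries 1, 5 and 6, so WT replicate 1 was the lowest and the other 2 WT libraries lay within the KO range. Agr3, a relative of Agr2, was at 13.4, 18.1 and 9.37 FPKM in KO libraries 7, 8 and 10, against 12.96, 3.92 and 2.76 FPKM in WT libraries 1, 5 and 6 (log2 fold change 1.15, SE 0.49, limma adjusted p = 0.381). Here WT replicate 1 stood with the KO libraries and apart from the other WT libraries, as in the ciliated marker sums. The part of ciliated cells in that value was not tested. Agr3 passed the threshold without WT replicate 1 (log2 fold change 1.72, SE 0.26, limma adjusted p = 0.0212). Chil4, a chitinase-like protein, Alox12e, a lipoxygenase, and Ern2, an endoplasmic reticulum stress sensor of mucous cells, had log2 fold changes of 1.08 (SE 0.56), 0.64 (SE 0.35) and 0.77 (SE 0.61). Tff1, Tff3, Itln1 and 5 more of the 17 listed products in the table were below the filter on low values.

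Of 18 tested genes of mucin glycosylation and folding, 12 were positive, with a median of 0.09. Galnt3, which starts O-linked glycan chains, was at 19.4, 19.5 and 19.1 FPKM in KO libraries, against 15.5, 16.6 and 15.97 FPKM in WT libraries, with no overlap (log2 fold change 0.26, SE 0.08, limma adjusted p = 0.318). Galnt4, of the same enzyme family, was at 5.91, 7.54 and 6.21 FPKM in KO libraries, against 7.88, 9.29 and 7.64 FPKM in WT libraries, also with no overlap (log2 fold change -0.30, SE 0.13, limma adjusted p = 0.385). These were the 2 of 18 genes without overlap, beside 19.3% of all genes, and they lay on opposite sides. Galnt12 and Gcnt1 overlapped between the groups, with log2 fold changes of 0.52 (SE 0.29) and 0.35 (SE 0.22).

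Of 20 goblet regulators and signals 12 were negative, with a median of -0.06. Il33, an alarmin cytokine that starts type 2 inflammation, was at 30.7, 40.4 and 28.95 FPKM in KO libraries, against 193, 58.6 and 62.2 FPKM in WT libraries, with no overlap (log2 fold change -1.40, SE 0.44, limma adjusted p = 0.318). Without WT replicate 1, by far its highest library, the log2 fold change was -0.85 (SE 0.15, limma adjusted p = 0.0297), past the threshold. Il4ra, the receptor chain shared by interleukin-4 and interleukin-13, was at 6.78, 8.87 and 6.71 FPKM in KO libraries, against 9.68, 10.3 and 9.23 FPKM in WT libraries (log2 fold change -0.35, SE 0.13, limma adjusted p = 0.342). The immune marker sums were likewise lower in KO libraries than in WT libraries. In WT replicate 1 the immune sum was the lowest of the WT group (65.4 FPKM). The AT2 marker sum of WT replicate 1 was the highest of all libraries (9366 FPKM). The part of either list in the values of Il33 and Il4ra was not tested. Ehf, an epithelial ETS factor, had a log2 fold change of -0.25 (SE 0.10) and no overlap, and Areg, an EGF receptor ligand, one of 0.49 (SE 0.29). Of the 20 genes 4 did not overlap, beside 19.3% of all genes. Jag2, a Notch ligand chosen for mention after its values were seen, was at 4.26, 5.14 and 3.85 FPKM in KO libraries, against 6.26, 1.89 and 1.29 FPKM in WT libraries (log2 fold change 0.57, SE 0.41, limma adjusted p = 0.598). WT replicate 1 was its highest library and was apart from the other WT libraries, as in the ciliated marker sums, whose part was not tested. Jag2 passed only without WT replicate 1 (log2 fold change 1.07, SE 0.17, limma adjusted p = 0.0221) and with library weights.

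Of 14 genes of mucin granule exocytosis 9 were negative, with a median of -0.07. Stx3, Stxbp2 and Rab27a, which act in granule docking and fusion, had log2 fold changes of -0.28 (SE 0.14), -0.17 (SE 0.09) and -0.32 (SE 0.16), each without overlap, which makes 3 of 14 genes beside the 19.3% of all genes. Marcks had a log2 fold change of 0.27 (SE 0.19). Of the other mucins Muc20 and Cd164 were the 2 tested. Muc20 was at 61.6, 72.2 and 54.8 FPKM in KO libraries, against 36.2, 73.5 and 82.7 FPKM in WT libraries, and Cd164 was between 128 and 164 FPKM in all 6. Muc2, Muc6, Muc13, Muc15 and Muc19 were below the filter.

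In single cells all 8 members were detected on both chips, in very different shares of cells. Kept cells had at least 1000 genes at a TPM of at least 1, the level called detected here. The highest spike-in share of TPM in a kept cell was 24.6% in those labelled knockout and 79.7% in WT. Spike-in RNA is part of the sum to which TPM is scaled. The lowest number of detected genes was 1819 in cells labelled knockout and 1201 in WT cells. The median cell labelled knockout had 3580 detected genes and 6.28% of its TPM in spike-in RNA. The median WT cell had 3130.5 genes and 13.2%. More genes were thus detected in the median cell on the chip labelled knockout. The part this has in the shares was not tested, and sequencing depth is unknown. Intervals are exact binomial at 95% and cover counting error only.

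Muc1 was detected in 61 of 61 cells labelled knockout and in 63 of 66 WT cells. Its TPM had a lowest value of 4.60, a median of 658 and a highest of 1763 in cells labelled knockout, against 0, 324 and 1528 in WT cells. Muc4 was detected in 33 of 61 cells labelled knockout (54.1%, interval 40.8% to 66.9%) and in 15 of 66 WT cells (22.7%, 13.3% to 34.7%). In the cells that had it, its median was 24.8 TPM in those labelled knockout and 8.64 TPM in WT.

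Muc5b was detected in 32 of 61 cells labelled knockout (52.5%, interval 39.3% to 65.4%) and in 20 of 66 WT cells (30.3%, 19.6% to 42.9%). The median among positive cells was 92.0 TPM in those labelled knockout and 50.5 TPM in WT, and the highest cells were nearly alike, at 289 TPM and 281 TPM. Muc5ac was detected in 9 of 61 cells labelled knockout (14.8%, interval 6.98% to 26.2%) and 2 of 66 WT cells (3.03%, 0.369% to 10.5%), with a highest cell of 43.3 TPM in those labelled knockout and 10.3 TPM in WT. Every cell with Muc5ac also had Muc5b on both chips, and 28.1% of the Muc5b cells labelled knockout and 10% of the WT ones had Muc5ac.

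Tff2 was detected in 30 of 61 cells labelled knockout (49.2%, interval 36.1% to 62.3%) and in 20 of 66 WT cells (30.3%, 19.6% to 42.9%). Where it was detected it was abundant, with a median of 1104 TPM and a range of 120 to 3794 TPM in cells labelled knockout, against a median of 268 TPM and a range of 1.76 to 3003 TPM in WT cells. Agr2 was detected in 27 of 61 cells labelled knockout (44.3%, interval 31.5% to 57.6%) and in 11 of 66 WT cells (16.7%, 8.62% to 27.9%), with a median among positive cells of 487 TPM in those labelled knockout and 179 TPM in WT. Of the cells with Tff2, 30 of 30 labelled knockout and 18 of 20 in WT had 10 TPM or more, and of those with Agr2, 25 of 27 labelled knockout and 11 of 11 in WT.

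Spdef was detected in 7 of 61 cells labelled knockout (11.5%, interval 4.74% to 22.2%) and in 8 of 66 WT cells (12.1%, 5.38% to 22.5%). Its mean of 4.76 TPM in WT cells rested on a cell at 262 TPM, which held 83.3% of the WT sum; the mean in cells labelled knockout was 1.1195 TPM. Foxa3 was detected in 11 of 61 cells labelled knockout (18.0%, interval 9.36% to 29.98%) and in 7 of 66 WT cells (10.6%, 4.37% to 20.6%), with a median among positive cells of 26.2 TPM in those labelled knockout and 6.47 TPM in WT.

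**Figure D3:**
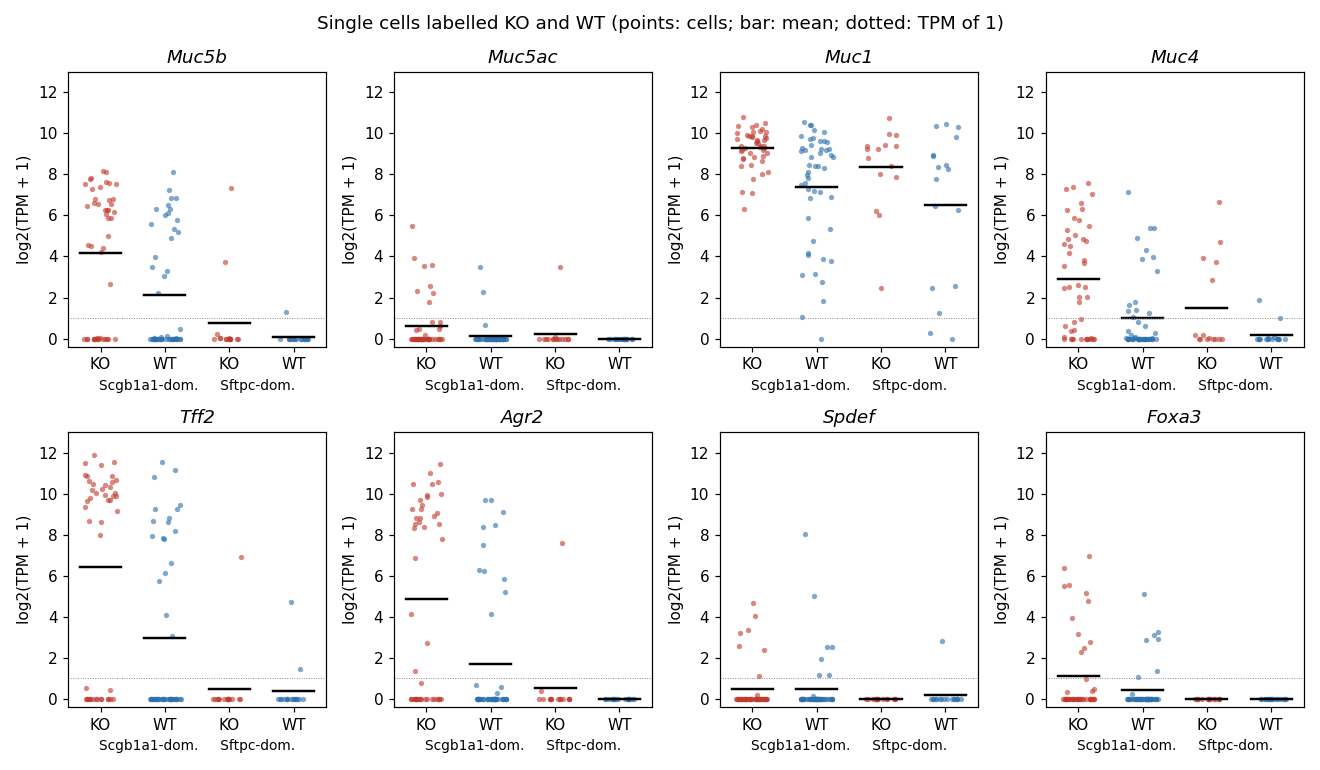
Log2(TPM + 1) of each member in Scgb1a1-dominant cells labelled KO (46) and WT (49) and in Sftpc-dominant cells labelled KO (15) and WT (17), classes set by which of the 2 transcripts is higher. Each point is 1 cell, lines are means and the dotted line is a TPM of 1; many cells are at 0 for Tff2, Agr2 and Muc5b and the others spread over a wide range, while Muc1 is detected in all cells labelled KO and in 63 WT cells.

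Mean log2(TPM + 1) was higher in cells labelled knockout by 2.67 for Tff2 (4.96 against 2.29), 2.54 for Agr2 (3.79 against 1.24), 1.88 for Muc1 (9.05 against 7.17), 1.77 for Muc4 (2.56 against 0.79) and 1.74 for Muc5b (3.33 against 1.59). Foxa3 (0.84 against 0.30) and Muc5ac (0.54 against 0.10) differed by 0.54 and 0.44, and Spdef (0.35 against 0.38) by -0.03. A positive difference was seen for 7 of 8 members, and also for 82.1% of the 4401 genes found in 30% or more of the cells on the chip where they were higher, whose median difference was 0.44. Tff2 and Agr2 passed the rule of size, a difference of at least 2, as did 1.2% of those genes in the higher direction, and none passed in the lower direction, where 0.0682% of genes did. Tff2 was the 9th and Agr2 the 12th of the 4401 by difference. Agr2 is among the 4401 through the cells labelled knockout alone, since it was detected in 16.7% of WT cells, so its place describes these chips and supports nothing further. Muc5ac, Spdef and Foxa3 were detected in too few cells to be among the 4401.

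The 2 that passed did so again among cells with 2500 to 4500 detected genes, where 0.629% of genes passed and the median difference of all genes was 0.14. In that range the difference was 2.48 for Tff2, 2.58 for Agr2, 1.78 for Muc5b and 1.41 for Muc4. For Muc1 it was 1.099, against 1.88 over all kept cells, and it was 1.204 with at least 2000 detected genes. The part of detected genes in the Muc1 difference was not tested. With a pseudocount of 10 neither Tff2 nor Agr2 passed, at differences of 1.96 and 1.68. In Scgb1a1-dominant cells alone Muc5b passed as well, with a difference of 2.05, where 1.75% of genes passed. When TPM was averaged before the log was taken, Agr2 and Muc4 passed and Tff2 did not, and the difference of Muc1 was 0.68. Muc4, like Agr2, was judged through the cells labelled knockout alone, since it was detected in 22.7% of WT cells. In bulk none of the members passed. The log2 fold change of Tff2 was 0.54 over all 6 libraries and -0.84 without WT replicate 1. That of Muc1 was -0.26 over all 6 libraries, opposite in sign to its single-cell difference. Spdef also differed in sign, at 0.12 in bulk and -0.03 in single cells.

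To see which cells held the members, cells with more Scgb1a1 than Sftpc, the defining transcripts of club and of AT2 cells, were set apart from the rest. This gave 46 Scgb1a1-dominant and 15 Sftpc-dominant cells labelled knockout, and 49 and 17 WT cells. The cut makes a range and not a type: 15 cells labelled knockout and 6 WT cells had a ratio of the 2 transcripts within 4-fold of it. The median number of detected genes was 3824 in Scgb1a1-dominant and 3196 in Sftpc-dominant cells labelled knockout, and 3154 and 2633 in WT cells.

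Muc5b and Tff2 were higher by 2 or more (mean log2(TPM + 1)) in Scgb1a1-dominant than in Sftpc-dominant cells on both chips. Agr2 was so on the chip labelled knockout. On that chip 5.2% of genes passed this rule, and 5.64% on the WT chip. Each of these genes reached the share of 30% through the Scgb1a1-dominant cells alone. The passes therefore describe these chips and support nothing further. Tff2 was detected in 29 of 46 Scgb1a1-dominant and 1 of 15 Sftpc-dominant cells labelled knockout, and in 18 of 49 and 2 of 17 WT cells. Its difference was 5.97 on the chip labelled knockout and 2.60 on the WT chip. Muc5b was detected in 30 of 46 and 2 of 15 cells labelled knockout, and in 19 of 49 and 1 of 17 WT cells, with differences of 3.41 and 2.04. Agr2 was detected in 26 of 46 and 1 of 15 cells labelled knockout, with a difference of 4.32. In WT cells Agr2 was in 11 of 49 and 0 of 17, which allows a share with detected transcript of up to 17.6% taken as 3 cells, or 19.5% as the exact upper limit; the difference was 1.67.

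The membrane mucins did not reach a difference of 2 between the classes on either chip. Muc1 was detected in 15 of 15 Sftpc-dominant cells labelled knockout and in 15 of 17 in WT, with a median of 602 TPM against 302 TPM, and its difference between the classes was 0.93 on the chip labelled knockout and 0.86 on the WT chip. Muc4 was in 28 of 46 Scgb1a1-dominant and 5 of 15 Sftpc-dominant cells labelled knockout, and in 14 of 49 and 1 of 17 WT cells, with differences of 1.43 and 0.83. Foxa3 was in 0 of 15 and 0 of 17 Sftpc-dominant cells, which allows shares with detected transcript of up to 20% and 17.6% taken as 3 cells (exact upper limits 21.8% and 19.5%), and Spdef in 0 of 15 and 1 of 17.

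Muc5b, Tff2 and Agr2 were often found in the same cells. This was not particular to them: of the Muc5b cells, 27 of 32 labelled knockout and 12 of 20 in WT had Muc4. For Agr2 these counts were 27 of 32 and 11 of 20. Of the Scgb1a1-dominant cells labelled knockout, 25 of 46 had all 3 (54.3%, interval 39.01% to 69.1%), 5 had 2, 0 had 1 and 16 had none. Of the WT ones, 9 of 49 had all 3 (18.4%, interval 8.76% to 32.02%), 9 had 2, 3 had 1 and 28 had none. Every Agr2 cell on both chips was also a Muc5b cell, and 30 of 32 Muc5b cells labelled knockout and 16 of 20 in WT had Tff2. Of the Sftpc-dominant cells, 1 of 15 labelled knockout and 0 of 17 in WT had all 3. The regulators were in the same cells on the chip labelled knockout, where all 7 Spdef and all 11 Foxa3 cells had Muc5b, against 5 of 8 and 6 of 7 in WT. Most cells with Muc5b had neither regulator above the threshold, since Spdef was found in 21.9% of Muc5b cells labelled knockout and 25% in WT, and Foxa3 in 34.4% and 30%; at these low levels a transcript can be missed in a cell that has it.

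**Figure D4:**
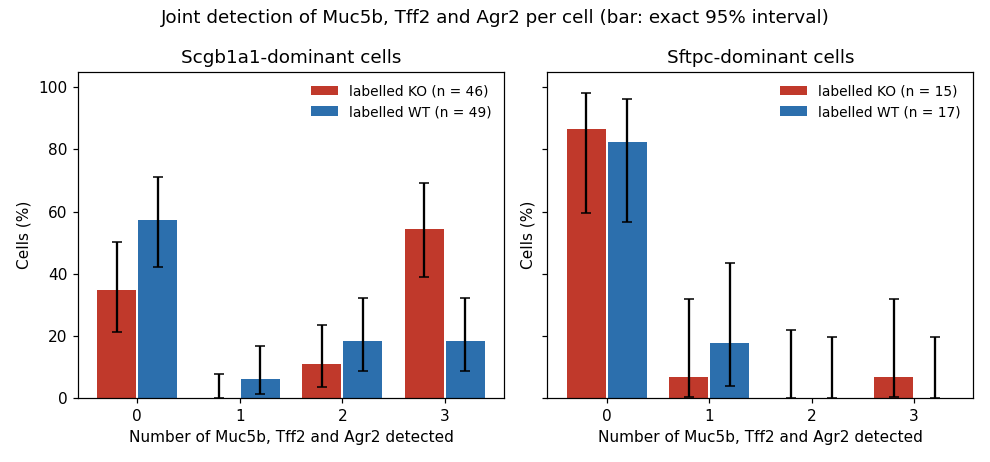
Percent of Scgb1a1-dominant (left) and Sftpc-dominant (right) cells in which 0, 1, 2 or all 3 of Muc5b, Tff2 and Agr2 were detected, cells labelled KO left of WT, with exact binomial 95% intervals. All 3 genes are found in 25 of 46 Scgb1a1-dominant cells labelled KO and in 9 of 49 WT ones.

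Rank correlations over the Scgb1a1-dominant cells describe the same grouping. The cells of a chip are not replicates, so no test is given. Detected genes ranged from 2303 to 5412 in those labelled knockout and from 1201 to 5245 in WT. The part of this range in the coefficients was not tested. Over 46 cells labelled knockout the Spearman coefficients between Muc5b, Tff2 and Agr2 were 0.73 (Muc5b and Tff2), 0.69 (Muc5b and Agr2) and 0.68 (Tff2 and Agr2), and over 49 WT cells they were 0.74, 0.76 and 0.68. Muc4 had coefficients of 0.53 to 0.69 with these 3 genes in cells labelled knockout and 0.48 to 0.56 in WT cells. Each of the 3 genes went along with Scgb3a1, with coefficients of 0.77 to 0.83 in cells labelled knockout and 0.68 to 0.82 in WT cells. With Scgb3a2, also of the club list, their coefficients were 0.68 to 0.80 in cells labelled knockout and 0.57 to 0.65 in WT cells. With Scgb1a1 itself the coefficients were -0.45 to -0.24 in cells labelled knockout and -0.12 to -0.07 in WT cells. With the number of detected genes they were 0.03 to 0.34 in cells labelled knockout and 0.20 to 0.25 in WT cells, while Muc1 had 0.22 in cells labelled knockout and 0.56 in WT cells.

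**Figure D5:**
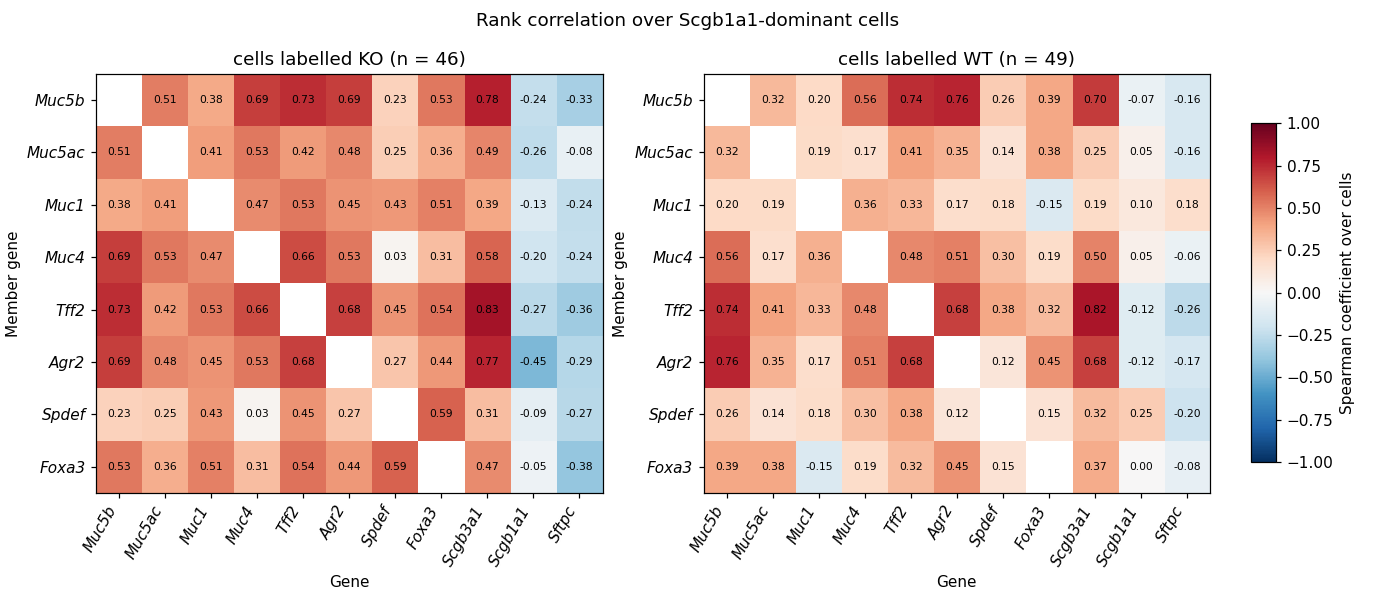
Spearman coefficients over Scgb1a1-dominant cells labelled KO (left, 46) and WT (right, 49) between each member (rows) and the members, Scgb3a1, Scgb1a1 and Sftpc (columns). Muc5b, Tff2, Agr2 and Scgb3a1 have values from 0.68 to 0.83 with each other, and Scgb1a1 is between -0.45 and 0.25 with all members. Muc4 is at 0.48 to 0.69 with Muc5b, Tff2 and Agr2.

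Among 4542 genes, the 6 with the highest mean Spearman coefficient with Muc5b over all kept cells of the chips (61 and 66) were Sult1d1 (0.78), a sulfotransferase; Tff2 (0.77); Scgb3a1 (0.74); Qsox1 (0.73), a disulfide-forming oxidase; Reg3g (0.73), an antibacterial lectin; and Bpifb1 (0.71), a secreted airway protein. The 6 most like Tff2 were Scgb3a1 (0.81), Pdpn (0.81), Lypd2 (0.77), Muc5b (0.77), Bpifb1 (0.76) and Sult1d1 (0.76). Muc4 stood 19th with Muc5b (0.64) and Muc1 255th (0.26). Only genes detected in at least 20% of the cells of each chip were compared, which left out Agr2.

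Of the wider lists, 2 genes passed the rule of size in single cells, Gp2 and Ltf, both higher in cells labelled knockout, beside the 1.2% of all genes. They were 2 of the 3 secreted products found in enough cells to be judged; of the other lists 2 mucins, 5 genes of glycosylation and folding, 13 regulators and 8 genes of exocytosis could be judged, and none passed. Gp2, a glycoprotein of secretory cells, was detected in 22 of 61 cells labelled knockout and 5 of 66 WT cells. Gp2 could thus be judged through the cells labelled knockout alone, so its pass describes these chips and supports nothing further. Ltf, which encodes lactoferrin, was in 32 of 61 cells labelled knockout and 26 of 66 WT cells, with a median among positive cells of 1075 TPM in those labelled knockout and 214 TPM in WT. In bulk neither separated the groups: Gp2 was at 28.1, 79.9 and 42.3 FPKM in KO libraries, against 3.46, 78.3 and 101 FPKM in WT libraries, and Ltf at 170, 421 and 423 FPKM in KO libraries, against 41.1, 474 and 327 FPKM in WT libraries. WT replicate 1 was the lowest library for both. Among the other mucins Muc20 was detected in 27 of 61 cells labelled knockout and 15 of 66 WT cells, Muc16 in 5 and 1, and Muc2, Muc6, Muc13, Muc15 and Muc19 in none.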

How the data were processed

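The members and all lists were chosen with earlier results of these data known. Bulk values are FPKM that the authors deposited, and the submitters' processing notes name TopHat, Bowtie2, Cufflinks and mm10; how Cufflinks normalized them is not stated there. Per the labels' protocols, libraries were made with a low-input SMARTer kit. Of 24341 rows, 12 genes have 20 entries marked as not quantified and were left out. A prefix shared by 5 column names is missing from WT replicate 6; 1 library cannot be tested as a batch. Single-cell values are TPM that the authors deposited in a table for each chip, with 92 ERCC spike-in RNAs; the submitters' processing notes name RSEM 1.2.20, Bowtie 1.1.1 and GRCm38. FPKM and TPM carry no counts, so depth is unknown and no count test was used; summed FPKM was 437710 to 678870 per library.

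Bulk log2(FPKM + 1) was tested with limma 3.58.1 under R 4.3.3 (robust eBayes with a trend; two-sided) over genes at 1 FPKM or more in at least 3 of 6 libraries, with Benjamini-Hochberg adjustment at 0.05, and the fit was tested on simulated data. Changes of genes at low FPKM come out too small on this scale. The single cells exclude wells remarked for debris or a valve (3 labelled knockout, 1 WT) and cells below 1000 genes with TPM 1 or more (3 labelled knockout, 6 WT). For 2 samples labelled knockout no column was matched; these are not analysed here. By the labels' protocols, wells with doublets were removed by inspection; no doublet caller was run. Single-cell differences subtract the WT mean of log2(TPM + 1) from that of cells labelled knockout, and a gene passed the rule of size when they reached 2 and 30% of the cells on the higher side had the gene. Where 0 cells had a gene, the largest share allowed was taken as 3 cells of the total. Gene positions are mm10. Genes of the wider lists were named by the smallest unadjusted limma p in bulk, up to 4 a list, with Jag2 added after its values were seen. In single cells the members, Trp53 and listed genes that passed the rule of size were named. Several other mucins, cell type markers and the genes most like Muc5b and Tff2 were named there as well. Other settings tried were pseudocounts, filters, scalings, library weights, leaving out each library, and cell classes.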

Additional observations from a re-analysis of the deposited data

Results flagged for a closer look

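Members were also read in wells that the comparisons leave out. In 3 wells of the chip labelled knockout with a debris or valve remark, 6, 6 and 6 of the 8 members were at a TPM of at least 1, and in the WT well with such a remark 4 were. Tff2 was at 2809, 161 and 1461 TPM in those wells labelled knockout and at 1072 TPM in the WT one. In the positive off-chip control of the chip labelled knockout 7 members were at a TPM of at least 1, all but Muc5ac, with Tff2 at 1208 TPM, Agr2 at 559 TPM and Muc5b at 18.96 TPM. In its negative off-chip control 0 members were at that level.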

How the results depend on the processing

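The number of members past the bulk threshold was 0 under all 12 alternatives run. Over all genes the limma calls numbered 1, against 2 with a pseudocount of 0.1, 3 with no filter on low values, 7 with libraries centred on club markers, 913 (7.64%) with library weights, and 0 to 407 with each library left out in turn. Of the wider lists 0 genes passed, against 2 (Agr3 and Jag2) with library weights and 0 to 3 with each library left out; the 3 passed without WT replicate 1. With library weights the log2 fold change turned to -0.32 for Tff2, -0.10 for Agr2, -0.16 for Spdef and -0.28 for Foxa3, and with centring on club markers to -0.13 for Spdef and -0.041 for Foxa3. With each library left out in turn it ranged over -0.0068 to 1.45 for Muc5b, -0.84 to 1.44 for Tff2, -0.22 to 1.75 for Agr2, -0.24 to 0.30 for Spdef and -0.41 to 0.53 for Foxa3; the lowest value was without WT replicate 1 in each, and Spdef and Foxa3 were also negative without KO replicate 8 (-0.05 and -0.09). The cause was not tested. Muc1 kept a negative and Muc4 and Muc5ac a positive fold change under every bulk alternative run. In single cells 2 members passed the rule of size, against 5 with a pseudocount of 0.1, 0 with a pseudocount of 10 and 0 in Sftpc-dominant cells alone. The 2 members higher in Scgb1a1-dominant cells on both chips stayed 2 under the 3 alternatives; the range of 2500 to 4500 detected genes was chosen after seeing the data. No paired analysis was possible because the bulk genotypes share no replicate number and each chip is 1 sample. The limits are 3 libraries a group, no counts in the tables and 1 chip a genotype.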
